A study of Bos taurus with 129 samples.

Results

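The corpus luteum of cows whose day 16 pregnancy was failing was compared here with that of cows whose pregnancy was normal. All 6 libraries labelled corpus luteum with embryo mortality (EM) and all 9 labelled corpus luteum with normal pregnancy (N) were used. These 15 libraries are 11.6% of all samples of the series. The contrast is EM minus N throughout. The methods describe lactating multiparous Holstein cows on a synchronised estrous cycle that were inseminated at a fixed time with semen of 1 sire and flushed on day 16. A conceptus that was long and translucent made the pregnancy N, and one that was pink, red, opaque or short made it EM. A further 7 corpus luteum libraries from non-pregnant (NP) cows entered the fit only to estimate the spread. How the luteal tissue was taken, how NP cows were treated, and which libraries of other tissues came from the same cow are not given in the sources used here. The labels do not say that the libraries are separate cows, so the p-values measure only the spread between these samples.

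The corpus luteum is the gland that the ovulated follicle becomes, and its large and small luteal cells make progesterone, the hormone that holds a pregnancy. Cholesterol enters the cell through lipoprotein receptors, STAR carries it into the mitochondrion, CYP11A1 cleaves its side chain with electrons from FDXR and FDX1, and HSD3B1 makes progesterone. In a cow without a viable conceptus, uterine prostaglandin F2 alpha starts luteolysis, in which progesterone synthesis stops and leukocytes enter the gland. In a normal pregnancy interferon tau from the conceptus blocks that signal, and it also induces interferon-stimulated genes in the corpus luteum.

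Depth was even between the groups. Total counts ran from 15334839 to 19662019 in EM, from 15451144 to 20375833 in N and from 17120736 to 20784434 in NP libraries. Levels are given as CPM, the count scaled to a fixed library total after TMM normalization. The label corpus luteum was checked against 10 markers of steroidogenic luteal cells. Their summed level was 30466 to 55922 CPM in N, with a median of 42177 CPM. Of the 6 EM libraries 4 lay between 38537 and 49791 CPM. EM replicate S112 held 16537 CPM and EM replicate S121 6888 CPM, both under every N library for all 10 markers. NP replicate S109 held 479 CPM, with LHCGR at 0.873 CPM, so luteal markers were nearly absent there, against its label. Values without these libraries are given beside the main results that rest on them. That choice was made after their values were seen.

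In S112 and S121 the luteal genes were low together. The ratio of STAR to CYP11A1 was 2.11 in S112 and 2.51 in S121, inside the N range of 1.88 to 2.6. The ratio of HSD3B1 to CYP11A1 was 2.4 and 1.89, against 1.39 to 2.67 in N. Not every ratio stayed inside: that of FDX1 was 0.312 in S112 and 0.322 in S121, above the N range of 0.227 to 0.3. That of LHCGR was 0.02136 in S112, just under the lowest N value of 0.0214, and inside the N range in S121. Those of FDXR, SCARB1, OXT and NR5A1 lay inside the N range in both libraries. In bulk samples, fewer luteal cells and less of these RNAs per cell cannot be told apart. Across the genes tested, S121 stood above every N library for 26.6% and below every N library for 27.8%, and S112 for 22.4% and 25.3%. The other 4 EM libraries did so for far fewer genes, 5.75% to 8.80% above and 7.44% to 13.2% below.

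Across 17597 genes tested, 1 gene was called higher in EM than in N, which is 0.00568%, and 0 were called lower (edgeR's quasi-likelihood test, Benjamini-Hochberg adjusted p under 0.05). At an unadjusted p under 0.05, 826 genes were higher (4.69%) and 375 were lower (2.13%). DESeq2 called 10 genes, 0.0575% of those it tested, of which 9 were higher and 1 was lower. They were LOC100297751, S100A12, S100A9, LOC614219, LOC404103, CYP3A4, SDS, VNN2 and PNPLA8, and CAPS2 as the lower one. DESeq2 called 9 genes without S109, 3 without S112 and S121 and 15 without all 3 libraries. LOC100297751 was called in each of these fits. LOC784294 and PIGR were called without S112 and S121 and also without all 3 libraries.

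The gene called by edgeR was LOC100297751, annotated as a pseudogene like DNAJC19. It had 0.705 to 3.71 CPM in EM, with a median of 1.92 CPM. It had no counts in 8 of the 9 N libraries and a single count in N replicate S124. The groups did not overlap, which held for 0.00568% of genes in that direction. EM held 227 counts and N 1, a depth-scaled ratio of 360.4 with a counting interval of 64.03 to 14295. The fitted log2 fold change was 7.39 (SE 1.09, adjusted p = 0.0143). Among NP libraries, S108 had 2.17 CPM and S118 1.9 CPM, and the other 5 had at most 0.18 CPM. The call was lost without each N library in turn, with adjusted p of 0.0517 to 0.0556, and of 0.791 without S124. Those edgeR fits kept the NP libraries. With EM and N libraries alone the adjusted p by edgeR was 5.9e-06, and DESeq2 on all libraries gave 1.22e-05. Reads of a pseudogene may be shared with its parent gene, so its count is uncertain.

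No steroidogenic gene was called, and 4 of the 6 EM libraries held most of them within the N range. STAR, the mitochondrial cholesterol carrier, had 2261, 13450.1 and 15837 CPM as lowest, median and highest EM values, against 7375, 12819 and 21308 CPM in N. The lowest EM values were those of S121 and of S112, at 4609 CPM, and the other 4 lay inside the N range. Its log2 fold change was -0.23, with a 95% interval of -1.37 to 0.91. CYP11A1, the side chain cleavage enzyme, ran from 899 to 6481 CPM in EM with a median of 5547 CPM, and from 3929.6 to 8208 CPM in N with a median of 5332 CPM. Again only S121 and S112 left the N range, and the log2 fold change was -0.24 (-1.38 to 0.90).

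HSD3B1, which makes progesterone from pregnenolone, had 1696 to 13969 CPM in EM (median 8848) and 8614 to 14247 CPM in N (median 11382). Its log2 fold change was -0.42 (-1.54 to 0.71). The electron donors FDX1 and FDXR gave -0.41 (-1.38 to 0.55) and -0.30 (-1.23 to 0.64). For each of these genes the lowest EM value was that of S121.

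**Figure D1:**
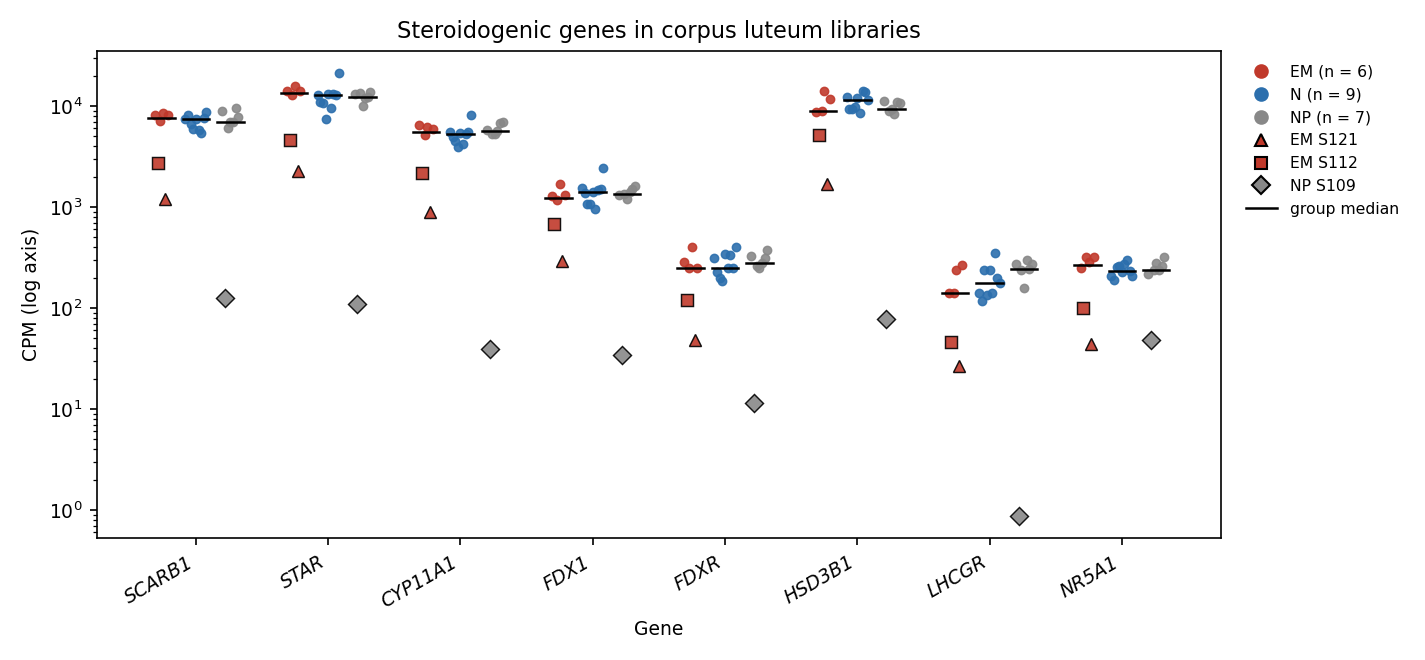
CPM on a log axis of 8 steroidogenic and luteal genes in each library of the 3 groups, with black lines at the group medians. EM replicates S112 (square) and S121 (triangle) lie under the N libraries for all 8 genes, and NP replicate S109 (diamond) lies lower still for 7 of them.

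SCARB1, a receptor through which luteal cells take up cholesterol from high density lipoprotein, had a median of 7645 CPM in EM against 7376 CPM in N. Its lowest EM value was 1206 CPM, in S121. Its log2 fold change was -0.22 (-1.27 to 0.83). TSPO and NPC2, both linked to cholesterol movement inside the cell, were not low in S121. NPC2 was at 429.8 CPM in S112 and at 137 to 270.4 CPM in N, and TSPO was at 58.9 and 58.5 CPM in S112 and S121 and at 21.5 to 50.3 CPM in N. Neither was called, with adjusted p of 0.755 and 0.781.

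Of 22 steroidogenesis genes listed, 20 were in the table and 18 passed the filter on low counts. None of the 18 was called in either direction, and 1 had an unadjusted p under 0.05, the aldo-keto reductase AKR1C4. It was at 17.6 CPM in S112, 7.26 CPM in S121 and at most 1.49 CPM in N. Members of its gene family are alike in sequence, so its count is uncertain. Their median log2 fold change was -0.10, beside 0.01 over all genes tested. The 95% interval lay within 1 log2 unit of 0 for 9 of the 18, beside 72.1% of all genes. Without NP replicate S109 it did so for 15 of the 18, beside 75.1%. Without S112 and S121 it did so for 8 of the 18, beside 72.6%. Without S109, S112 and S121 it did so for 16 of the 18, beside 76.8%, and the median was 0.14. In this last fit 4 of the 18 were higher in EM at an unadjusted p under 0.05, beside 2.75% of all genes, and 0 were lower. They included the cholesterol transporter NPC1 at 0.23, the electron donor POR at 0.23 and the lipase LIPE at 0.34. None was called. There STAR was at 0.19 (-0.20 to 0.58), CYP11A1 at 0.17 (-0.15 to 0.48) and HSD3B1 at -0.05 (-0.38 to 0.29). Over the 17 genes with an N median of at least 1 CPM, 58 of the 68 values in the other 4 EM libraries fell inside the N range (85.3%), beside 83.4% over all genes tested.

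**Figure D2:**
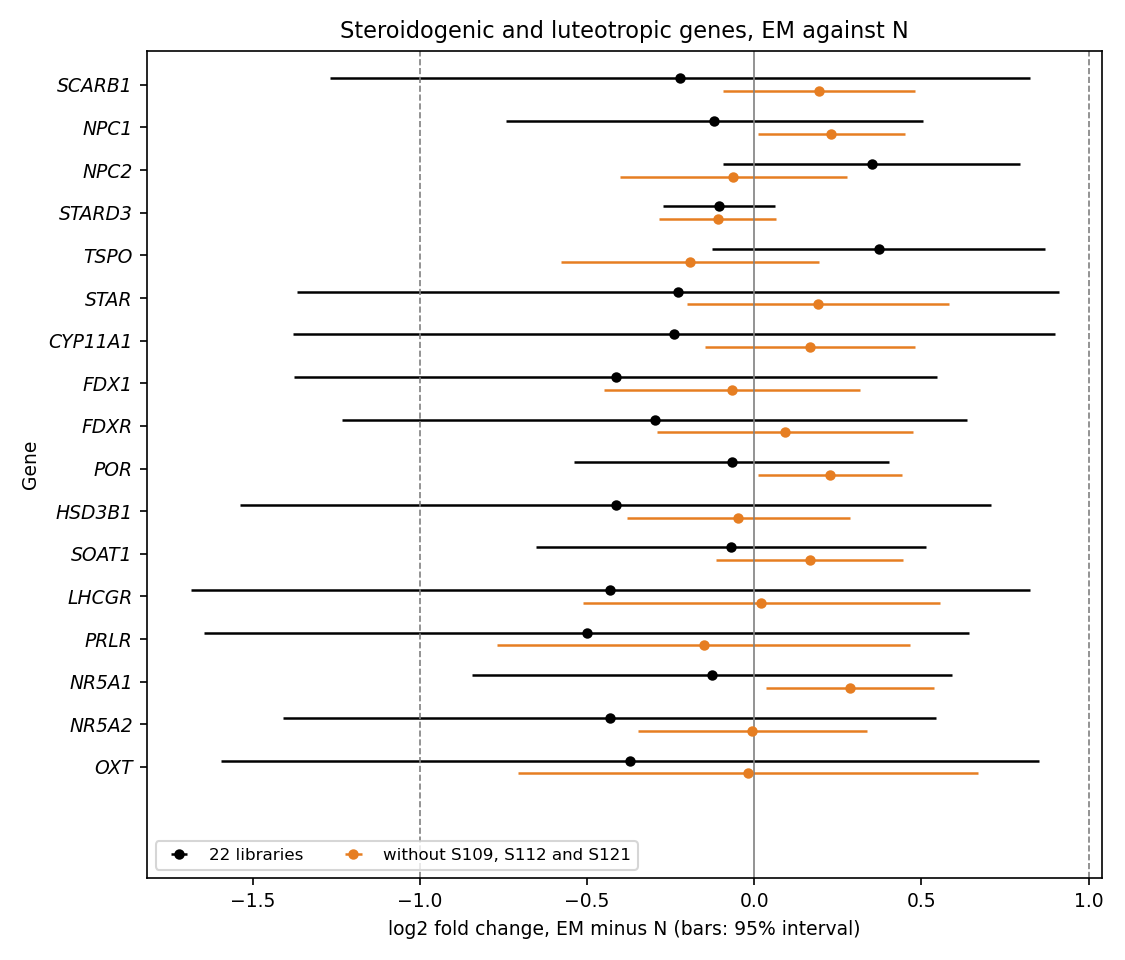
Log2 fold change of EM minus N (points) with its 95% interval (bars) for 17 steroidogenic and luteotropic genes, in the fit of all 22 libraries (black) and without S109, S112 and S121 (orange). Dashed lines mark 1 log2 unit. The black interval of STAR runs from -1.37 to 0.91 and the orange one from -0.20 to 0.58.

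Receptors and regulators of the luteal cell followed the same libraries. LHCGR, the receptor for luteinizing hormone, had 26.4, 141 and 266 CPM as lowest, median and highest EM values, and 118.4, 176 and 354 CPM in N. The groups overlapped, with S121 and S112 under every N library. Its log2 fold change was -0.43 (-1.69 to 0.82, adjusted p = 0.911). PTGFR, the receptor through which prostaglandin F2 alpha acts on luteal cells, was at 407 CPM in S121 and 769 CPM in S112, and at 2410.0 to 2747 CPM in the other EM libraries. NR5A1, a transcription factor of steroidogenic genes, had a median of 267 CPM in EM and 234 CPM in N. OXT, the luteal oxytocin gene, ranged from 159 to 839 CPM within N alone. Of the 20 listed receptors and regulators tested, 0 were called, and only PGR, the progesterone receptor, had an unadjusted p under 0.05. PGR had a median of 3.71 CPM in EM and 2.71 CPM in N. S121 held 10.5 CPM of it. Without S109, S112 and S121, 4 of 20 were higher in EM at that limit, beside 2.75% of all genes. They were GHR, IGF1R, NR5A1 and PGRMC2, with log2 fold changes of 0.19 to 0.35, and PGR was not among them.

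Genes of cholesterol synthesis were likewise low in S121 and S112. Their summed level was 3543 CPM in S121 and 6613 CPM in S112, against 12584 to 20559 CPM in N and 17156 to 19966 CPM in the other EM libraries. None of the 20 was called, and their median log2 fold change was -0.21. It was 0.17 without S109, S112 and S121. In that fit 3 of the 20 were higher at an unadjusted p under 0.05, beside 2.75% of all genes. INSIG1, which holds back cholesterol synthesis when sterols are plentiful, had the smallest p of the list. It had 97.2 to 709 CPM in EM and 48.5 to 361 CPM in N, with a log2 fold change of 1.02 (SE 0.57, adjusted p = 0.743).

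Calgranulins were highest in S121. S100A12, a calcium-binding protein of granulocytes, had 1205 CPM in S121 and 66.8 CPM in S112. The other 4 EM libraries had 3.54 to 5.64 CPM, and N had 2.49, 6.03 and 10.8 CPM as lowest, median and highest. So 2 EM libraries stood above all N libraries and 4 lay among them. S121 alone held 93.4% of the summed EM level. The log2 fold change was 5.22 (SE 1.04) with an adjusted p of 0.391 by edgeR and 7.47e-05 by DESeq2. It was 1.56 without S121, and -0.34 without S112 and S121. DESeq2 called neither S100A12 nor S100A9 without S112 and S121, with adjusted p of 1.00 for both, and without S109 alone its check on outlying counts gave them no p.

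S100A9 and S100A8, which form calprotectin, an abundant protein of neutrophils, were likewise highest in S121 and then in S112. S100A9 was at 271 CPM in S121, 15.6 CPM in S112 and 0.686 to 3.02 CPM in the rest of EM, against 0.783 to 2.81 CPM in N. It stood above all N libraries in S121, S112 and S117, and under them in S110 and S125. S100A8 was at 183, 9.4 and 1.16 to 2.22 CPM, against 0.69 to 9.25 CPM in N. Their log2 fold changes were 4.78 (SE 0.98) and 3.36 (SE 0.90), with adjusted p of 0.391 and 0.724. The median of the 3 genes was 4.78 with all libraries, 1.32 without S121 and -0.34 without S112 and S121, where the direction turned.

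Other neutrophil markers were high in the same libraries. The chemokine receptor CXCR2 was at 15 CPM in S121 and 7.73 CPM in S112, and at 1.17 to 3.64 CPM in N. Of 8 neutrophil markers in the table, 3 of them the calgranulins, 7 stood above every N library in S121 and 7 in S112. The shares over all genes tested were 26.6% and 22.4%. None of the 8 was at 0 in all libraries. Their summed level was 1711 CPM in S121, 127.3 CPM in S112, 22.9 to 33.1 CPM in the other EM libraries and 17.6 to 42.1 CPM in N. Most of the sum in S121 and S112 was that of the 3 calgranulins, at 1658 and 91.8 CPM, so it largely repeats the values above. The part of neutrophil RNA in these results was not tested.

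C3, the central complement protein, had 1339 CPM in S121 and 14.3 to 91.6 CPM in the other 5 EM libraries. N libraries had 15.1, 25.8 and 36.7 CPM as lowest, median and highest, and NP replicate S109 had 194 CPM. Thus S121, S114 and S112 exceeded all N libraries, S114 at 91.6 and S112 at 48.2 CPM. S121 held 86.6% of the EM sum. The log2 fold change was 3.35 (SE 0.83, adjusted p = 0.724) and 0.71 without S121. CFB, the factor that with C3 forms the alternative pathway convertase, was at 1434 CPM in S121 and at most 20.6 CPM in the rest of EM, against 1.17 to 26.2 CPM in N. CFI, a protease that inactivates C3b, was at 218 CPM in S121 and at most 24.1 CPM in N. Within N both CFB and CFI were highest in S119, S122 and S124, at 26.2, 21.6 and 19.9 CPM for CFB. Of 24 complement genes tested, 0 were called and 5 were higher at an unadjusted p under 0.05, beside 4.69% of all genes. The median of the 24 was 0.32. That median was -0.16 without S112 and S121.

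PRG4, or lubricin, a lubricating proteoglycan of joint and serosal surfaces, had 184 CPM in S121. S114 had 8.94 and S112 8.92 CPM, the other 3 EM libraries 0.897 to 1.71 CPM, and N 0.682, 1.65 and 6.55 CPM as lowest, median and highest. S121, S114 and S112 stood above all N libraries, and S121 held 89.3% of the EM sum. The log2 fold change was 4.05 (SE 0.97, adjusted p = 0.724) and 1.09 without S121. HAS2, a hyaluronan synthase, was at 29 CPM in S121 and at most 1.4 CPM in N.

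**Figure D3:**
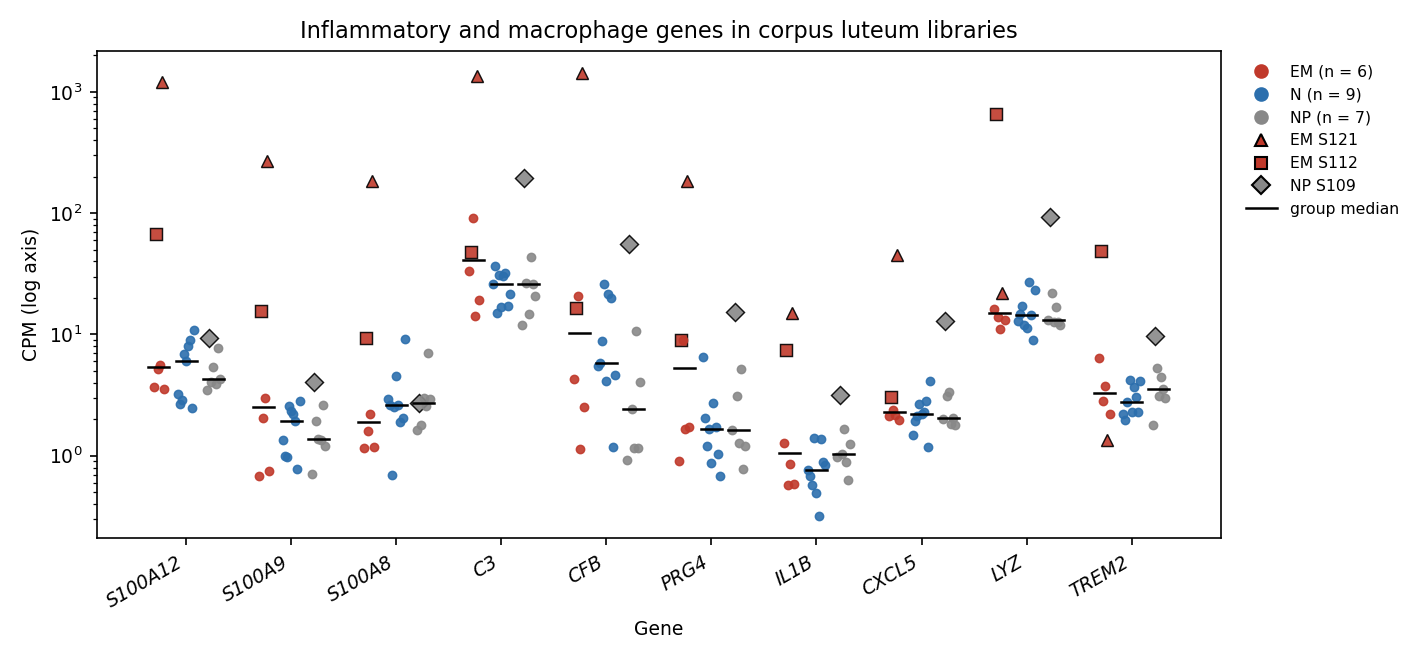
CPM on a log axis of 10 inflammatory and macrophage genes in each library of the 3 groups, with black lines at the group medians. S121 (triangle) is highest for S100A12, S100A9, S100A8, C3, CFB, PRG4, IL1B and CXCL5, while S112 (square) is highest for LYZ and TREM2.

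Cytokines and acute phase genes showed both libraries. IL1B, a cytokine of activated myeloid cells, was at 14.9 CPM in S121, 7.49 CPM in S112 and 0.573 to 1.27 CPM in the other EM libraries, against 0.319 to 1.4 CPM in N. Its log2 fold change was 2.38 (SE 0.61, adjusted p = 0.724) and 0.02 without S112 and S121. IL33, an alarmin, was highest in S112 at 115.05 CPM, then S121 at 48.2 CPM, and at most 15.2 CPM in N. The chemokine CXCL5 was at 45.6 CPM and CCL2 at 120.99 CPM in S121, with N maxima of 4.09 and 21.2 CPM. CEBPD, a transcription factor of the acute phase response, was spread over more of the group. It had 52.7, 96 and 213 CPM as lowest, median and highest EM values and 27.9, 50.5 and 87.8 CPM in N. The EM libraries S110, S112, S121 and S125 stood above all N libraries. Its log2 fold change was 1.12 (SE 0.28, adjusted p = 0.724) and 0.79 without S112 and S121. NP libraries also had up to 101.6 CPM. Of the 27 listed cytokine and acute phase genes tested, 0 were called, and 8 were higher and 1 was lower at an unadjusted p under 0.05. Over all genes tested, 4.69% were higher and 2.13% lower at that limit. The median of the 27 genes was 0.46 and became -0.15 without S112 and S121. There 1 was higher and 1 lower, beside 201 and 425 of 18021 genes tested. The listed chemokines summed to 1035 CPM in S112 and 845 CPM in S121. The higher sum of S112 rested on CCL21, also a listed marker of lymphatic endothelium, with 6538 counts in S112 and 692 in S121.

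Epithelial genes were high in S121 as well. Keratins of stratified epithelium were among its highest genes relative to N: KRT5 at 804, KRT15 at 701 and KRT13 at 334 CPM, with N maxima of 6.48, 11.6 and 1.86 CPM. TP63, a transcription factor of basal epithelial cells, was at 36.6 CPM and the gel-forming mucin MUC5AC at 166 CPM. A list of 15 stratified epithelium genes, drawn up after these values were seen, summed to 2459 CPM in S121, 1.5 to 23.7 CPM in the other EM libraries and 2.47 to 45.2 CPM in N. A like list of 8 mucous epithelium genes summed to 2847 CPM in S121. It was at 183, 156 and 247 CPM in N replicates S119, S122 and S124 and at most 16.5 CPM in the other EM libraries. So the 3 N libraries with the highest CFB and CFI also had the highest mucous epithelium sums of their group. The part of epithelial RNA in the complement values was not tested.

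Markers of the ovarian surface and mesothelium stood above every N library in S121 for 13 of 13 genes, beside 26.6% of all genes. KRT5 was among them. Their summed level was 3257 CPM in S121, 170.4 to 255 CPM in the rest of EM and 124.4 to 423 CPM in N. DES, the muscle intermediate filament, was at 7646 CPM in S121 and spanned 2.15 to 2879 CPM within N. The 9 markers of pericytes and smooth muscle summed to 20335 CPM in S121 and to 1294 to 9994 CPM in N. In S121, 6 of the 9 stood above every N library, among them MYH11 at 4579 and TAGLN at 3682 CPM. The pericyte markers RGS5, PDGFRB and NOTCH3 stood below every N library in S121. Over all genes tested, S121 stood above every N library for 26.6% and below every N library for 27.8%. The part of these tissues in the levels of PRG4 and S100A12 was not tested.

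S112 differed from S121 in which genes were high. LYZ, lysozyme, was at 659 CPM in S112, 22 CPM in S121 and 9 to 26.9 CPM in N. Cattle carry several lysozyme genes of like sequence, so its count is uncertain. TREM2, a lipid-sensing receptor of macrophages, was at 48.6 CPM in S112, 1.34 CPM in S121 and at most 4.21 CPM in N. GPNMB, a glycoprotein of lipid-laden macrophages, was at 968 CPM, the lysosomal CD68 at 261 CPM and the signalling adaptor TYROBP at 120.9 CPM in S112, with N maxima of 149.6, 28.9 and 11.7 CPM. In S121 the same 3 genes were at 66.9, 23.2 and 10.6 CPM. Other macrophage markers were mixed in S112: CSF1R was at 39.5 and C1QA at 59.4 CPM, both inside the N range, while AIF1 and CD14 stood above every N library. Of the 9 macrophage markers, 4 stood above every N library in S112, beside 22.4% of all genes tested. Their summed level was 565 CPM, against 196 to 318 CPM in N.

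Endothelial genes were also high in S112. PECAM1, an adhesion molecule of endothelium, was at 519 CPM in S112, 198 CPM in S121 and 97.7 to 153 CPM in N. CLDN5, an endothelial tight junction protein, was at 157 CPM in S112 and at most 22 CPM in N. It was at 27.6 CPM in S121. The 10 endothelial markers summed to 2546 CPM in S112 and 918 CPM in S121, above and below the N range of 1246 to 1733 CPM. None of the 10 was called.

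**Figure D4:**
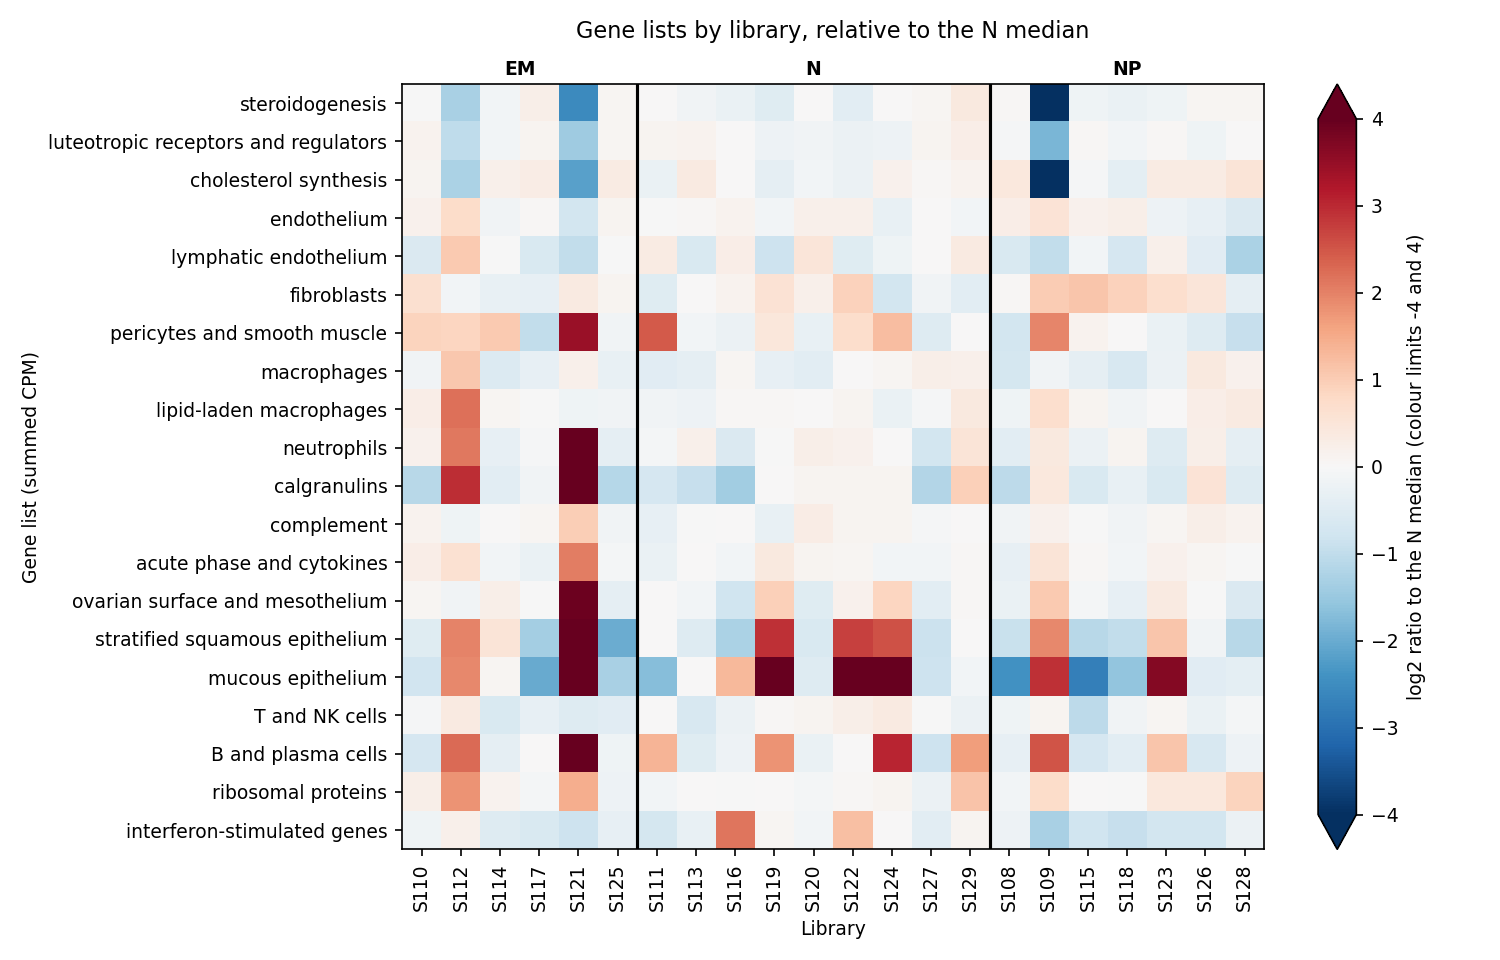
Summed CPM of 20 gene lists (rows) in each of the 22 libraries (columns, grouped as EM, N and NP), as the log2 ratio to the N median, with colours cut at -4 and 4. S121 and S112 are low in steroidogenesis and high in calgranulins, S109 is at the lower limit for steroidogenesis, and S116 has the darkest interferon cell.

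Single libraries carried a large share of the EM means. Of 12226 genes with an EM mean of at least 5 CPM, 380 had an EM mean at least 2 times the N mean. In 308 of these, 2.52% of the genes, 1 library held at least 50% of the summed EM level. S121 carried 269 of them, S112 36, S114 3 and the other 3 EM libraries 0. The groups exchanged, 6 of 12032 genes (0.0499%) were carried by 1 N library, of which S116 carried the interferon-stimulated ISG15, OAS1Z and LOC100139670. Among 9 N libraries, 1 library needs a larger excess to meet these limits than among 6 EM libraries. The shares of EM and N are therefore not like for like. In S121 the largest ratios among genes seen in N were TMPRSS11BNL at 203 times, KRT13 at 132 times, KRT5 at 93.2 times and SLC5A5, the iodide transporter, at 55.7 times the N mean. KRT6A had 37.7 CPM in S121 and no count in any N library, and keratin genes of like sequence make its count uncertain. In S112 the largest were LOC782922, annotated as like prostaglandin F synthase, at 42.8 times, CSTB_1 at 11.5, LOC614219 at 8.2, LYZ at 7.78 and MAL at 5.01 times the N mean. Those of S114 were LOC112443766, LOC783540 and TRGC4, a T cell receptor gene. Of the 269 genes of S121, 25.7% also stood above every N library in S112, beside 22.4% of all genes tested, and 41.6% did so in NP replicate S109, beside 27.3% of all genes tested. Of the 36 of S112, 14 (38.9%) did so in S121 and 30 (83.3%) in S109, beside 26.6% and 27.3% of all genes tested. These genes were chosen by their values, so the counts are a description.

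Of 24 genes known to be induced during luteolysis, 14 stood above every N library in S121 and 12 in S112. Below every N library stood 5 and 4 of them. The shares over all genes were 26.6% and 22.4% above, and 27.8% and 25.3% below. FOS and ATF3, early response transcription factors, were at 1212 and 584 CPM in S121. In N they reached 231 and 62.2 CPM, and FOS was at 1671 CPM in NP replicate S109. NR4A1, another early response gene, was high in S121 at 632, S110 at 378 and S125 at 255 CPM, against 27.9 to 210.4 CPM in N, and NP libraries reached 337 CPM. EDN1, which encodes the vasoconstrictor endothelin, was at 36.1 CPM in S121 and 26.5 CPM in S112, and at most 6.56 CPM in N. Of the 24 listed luteolysis genes tested, 0 were called and 6 were higher at an unadjusted p under 0.05, beside 4.69% of all genes. The median of 0.48 became -0.09 without S112 and S121, where 1 was higher at that limit. Of 18 prostaglandin genes, 2 were higher at an unadjusted p under 0.05, beside 4.69% of all genes. They included PTGS1, a cyclooxygenase, at 45.9 CPM in S121 and at most 6.31 CPM in N. Without S112 and S121 the count was 0 of 18, and the prostaglandin median of 0.16 became -0.04. The 18 apoptosis genes had a median of 0.01, and for 16 the interval lay within 1 log2 unit.

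Interferon-stimulated genes had lower fitted levels in EM, and the median difference moved most with N replicate S116. Of 39 listed, 35 were in the table and all 35 were tested. They summed to 983, 1308 and 2008 CPM as lowest, median and highest EM values, to 1085, 1753 and 7679 CPM in N and to 715, 1047 and 1512 CPM in NP. N replicate S116 held the highest sum and S122 the second, at 4059.6 CPM, and the other 7 N libraries lay between 1085 and 1911 CPM, which overlaps EM. S116 was the highest N library for all 35 genes and S122 the second highest for 33. The 35 log2 fold changes were all below 0, with a median of -0.72. None was called, and 15 were lower at an unadjusted p under 0.05, beside 2.13% of all genes. Without S116 the median was -0.29 and 6 fold changes were above 0. In that fit 4 of the 35 were lower at that limit, beside 324 of all 17585 genes tested. The count also moved with other libraries. It was 5 without S122 (median -0.66), 4 without EM replicate S121 and 23 without EM replicate S112. It was 18 without both S112 and S121 and 6 with EM and N libraries alone. Over all genes, 306 of 17520 were lower without S122, 306 of 17791 without S121 and 357 of 17838 without S112. The counts were 425 of 18021 (2.36%) without both S112 and S121 and 352 of 17079 with EM and N libraries alone.

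Of single genes, IFI27 ran from 39.6 to 153 CPM in EM and from 49.9 to 1148 CPM in N, with a log2 fold change of -1.77 (SE 0.64, adjusted p = 0.724). ZBP1, a nucleic acid sensor, had 3.6 to 15.9 CPM in EM and 6.26 to 83 CPM in N. UBA7, the activating enzyme for ISG15, had 22.8 to 57.1 and 37 to 236 CPM. ISG15 was highest in S112 among EM libraries, at 50.1 CPM, and in S116 among N libraries, at 321 CPM. For each of these genes the groups overlapped.

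**Figure D5:**
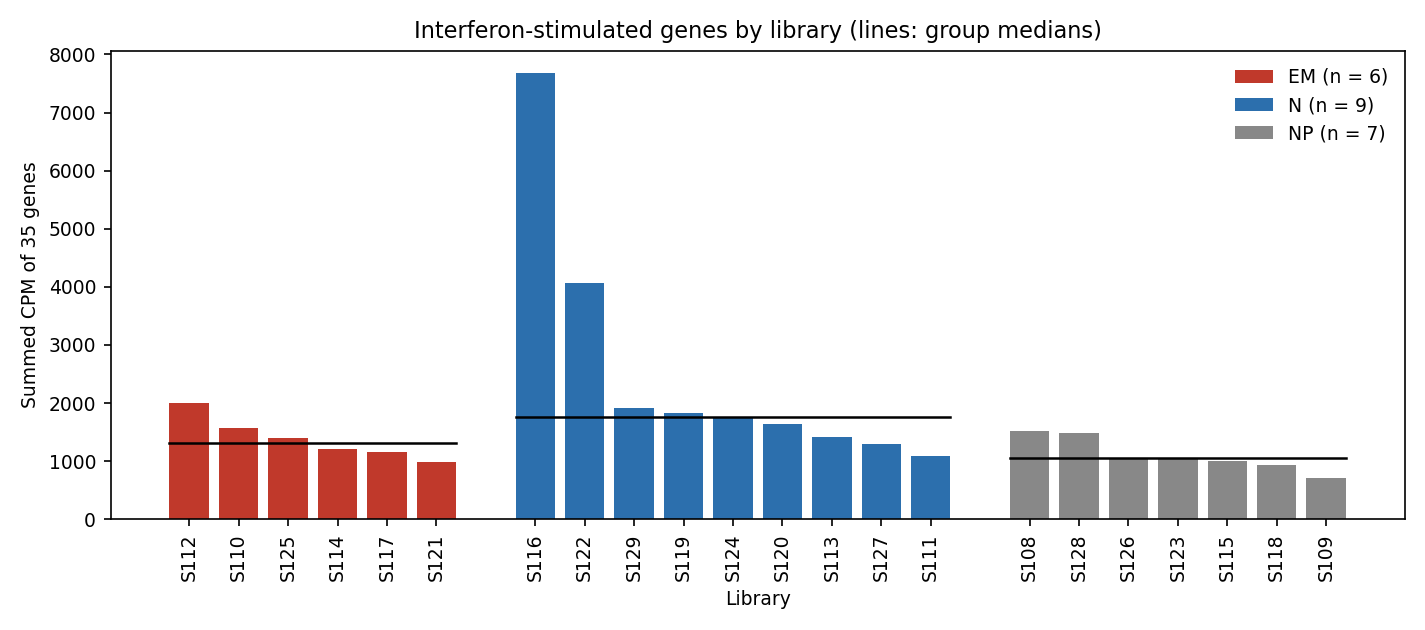
Summed CPM of 35 interferon-stimulated genes in each library (bars, ordered within EM, N and NP), with black lines at the group medians. N replicates S116 and S122 reach 7679 and 4059.6 CPM, and the other N libraries overlap the EM bars.

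Other gene groups gave 0 calls. T and NK cell markers had a median of -0.27, with 3 of 13 lower at an unadjusted p under 0.05, beside 2.13% of all genes. That count was 0 without EM replicate S121, 0 without N replicate S122 and 1 without both S112 and S121. It was 2 without S112 and 4 with EM and N libraries alone. The counts over all genes in these fits are those given above for the interferon-stimulated genes. CD3D, a subunit of the T cell receptor complex, had 1.62 to 3.99 CPM in EM and 2.8 to 7.19 CPM in N. The chemokine CCL4 had 1.26 to 2.8 CPM in EM against 2.06 to 3.93 CPM in N. Of 14 T-helper genes 0 passed that limit, and likewise 0 of 21 antigen presentation genes and 0 of 21 cell cycle genes. Angiogenesis genes had a median of -0.14, with 16 of 21 intervals within 1 log2 unit, and extracellular matrix genes a median of 0.01, with 17 of 25. Of 20 ribosomal protein genes, 10 were higher at an unadjusted p under 0.05, beside 4.69% of all genes. All 20 had positive fold changes, with a median of 0.63. Their summed level was 36416 CPM in S112 and 28779.6 CPM in S121, but N replicate S129 also had 23165 CPM, and the median was -0.14 without S112 and S121. The 13 mitochondrially encoded genes had a median of 0.35, and 5 were higher at an unadjusted p under 0.05, beside 4.69% of all genes. The median was 0.27 without S112 and S121, where 2 of the 13 were higher at that limit, beside 201 of 18021 genes. All 13 fold changes were positive in both fits, and none was called.

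Among 14 genes that the study carried forward as candidates from conceptuses, 0 were called in the corpus luteum. At an unadjusted p under 0.05, 2 of the 14 were higher, beside 4.69% of all genes. IFNGR1, the ligand-binding chain of the interferon gamma receptor, had 147, 159.7 and 256 CPM as lowest, median and highest EM values and 95.1, 132 and 179 CPM in N, a log2 fold change of 0.41 (SE 0.14, adjusted p = 0.724). CAST, calpastatin, gave 0.28 (SE 0.12).

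Some genes with small p were not carried by 1 library. PNPLA8, a calcium-independent phospholipase, had 34.6 to 41.8 CPM in EM and 29.2 to 36.7 CPM in N. Its log2 fold change was 0.24 (SE 0.06), with an adjusted p of 0.724 by edgeR and 0.0294 by DESeq2. The DESeq2 value was 0.0512 without S109, 0.0702 without S112 and S121, and 0.0414 without S109, S112 and S121. CAPS2, a calcium-binding protein, had at most 0.141 CPM in EM and 0, 1.52 and 5.21 CPM as lowest, median and highest in N. Its EM values lay under 7 of the 9 N libraries, and its log2 fold change was -4.64 (SE 1.10, adjusted p = 0.724 by edgeR and 0.0123 by DESeq2). By DESeq2 the adjusted p was 0.0174 without S109, 0.0812 without S112 and S121, and 0.0491 without S109, S112 and S121. GULO, an enzyme of vitamin C synthesis, had 1.89 to 3.23 CPM in EM and 2.47 to 6.92 CPM in N. TRIM14, an adaptor of antiviral signalling, had 2.89 to 4.49 CPM in EM and 4.25 to 7.71 CPM in N. HOXC5, BEST1, GIMAP5, LCK, NUP210, VAMP1 and FUK made up the rest of the 10 named genes with the smallest p among those lower in EM, with log2 fold changes of -1.05 to -0.40 and adjusted p of 0.724. Other genes with small p were carried by S121. SDS, the enzyme serine dehydratase, was at 126.3 CPM in S121 and 69.2 CPM in S112, VNN2 at 105.7 and 57.7 CPM and CYP3A4 at 42.3 and 3.05 CPM. S121 held 57.9% of the EM sum of SDS, 59.4% of VNN2 and 89.02% of CYP3A4. Without S112 and S121 their log2 fold changes were 0.29, -0.35 and 0.19. Their N maxima were 8.6, 9.55 and 1.55 CPM. Apart from LOC100297751, 2 genes had no overlap between the groups, both lower in EM, which is 0.0114% of genes. ZNF7, a zinc finger gene, had 22.7 to 24.7 CPM in EM and 24.8 to 30.05 CPM in N. LOC112449312 had at most 0.456 CPM in EM and at least 0.501 CPM in N. Neither was called, and both were named after their values were seen.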

How the data were processed

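RNA of 22 corpus luteum libraries was sequenced from stranded mRNA libraries as single reads of 75 bases, and per the labels the reads were aligned to the bovine UCD1.2 assembly. The authors deposited raw counts per gene, with no normalization. The sources used here do not give the counting program. The labels name edgeR and DESeq2 without versions. The table held 35186 rows, of which 28 with a repeated name were left out, and 0 columns of per-sample values stayed unused in it. All tables came from R 4.3.3.

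Genes were kept by filterByExpr at a minimum count of 10. EM, N and NP libraries were fitted together with edgeR 4.0.16 (TMM factors, quasi-likelihood F test) and the EM minus N contrast was taken from it, with Benjamini-Hochberg adjustment over all genes tested and a threshold of 0.05. SE and 95% intervals were derived from the F statistic. Intervals of count ratios cover counting error only. DESeq2 1.42.0 was run as an alternative, as were RLE factors, other filters, EM and N alone, a robust spread estimate and each EM and N library left out. The fits without S109, S112 and S121 were added after seeing the data. The procedure was tested on simulated data. Pairs of libraries differed by more than sampling noise, so none was counted as a duplicate.

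Named genes were S100A12, C3 and PRG4, every gene called, the 10 with a symbol and the smallest p in each direction, members of the steroidogenesis, luteotropic and calgranulin lists, up to 4 of each other list by smallest p, and the 5 of largest ratio carried by each EM library. Members and lists were chosen with earlier results of these data known. The epithelium and lipid-laden macrophage lists and other genes named for their values were chosen after values were seen.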

Additional observations from a re-analysis of the deposited data

Results flagged for a closer look

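Within the groups, 60 values were compared with the rest of their own group by the gap of the extreme library to its neighbour, relative to the group's range (Dixon's critical value at 95%). Chance marks about 1 in 20, and 13 were marked. Most marks fell on S109 and S129 and on related genes. The values are therefore not independent, and the count does not measure an excess over chance. The mean Spearman correlation across genes with the libraries of the own group was low in EM replicate S121, at 0.887 against an EM median of 0.946, in NP replicate S109, at 0.882, and in N replicate S129, at 0.957 against an N median of 0.971.

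NP replicate S109 was marked for its luteal genes. Its summed steroidogenesis level was 9.64 on the log2 CPM scale. STAR was at 6.79, CYP11A1 at 5.29, HSD3B1 at 6.27, FDX1 at 5.11 and LHCGR at -0.20 on that scale. EM replicate S121 was marked for the summed complement level, 12.49 on the log2 CPM scale, of which C3 and CFB are the largest parts given above.

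N replicate S129 was marked at the high end. Its summed ribosomal protein level was 14.50 on the log2 CPM scale, CYP11A1 was at 13.003 and FDX1 at 11.27. STAR was also highest of the N libraries there, at 21308 CPM.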

How the results depend on the processing

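No paired analysis was run. Each replicate number is used once in the series, so the numbers cannot show whether any libraries are paired. The number of genes called was 1 in the main analysis and 0 when at least 10 counts were asked in every library, a filter that removes LOC100297751, and 10 by DESeq2, which gave 9 without S109, 3 without S112 and S121 and 15 without all 3. Leaving out one EM or N library at a time it ran from 0 to 1, and LOC100297751 kept log2 fold changes of 7.17 to 8.29. It lost its call without each of the 9 N libraries and kept it without each EM library and with EM and N libraries alone. S100A12 and S100A9 passed the threshold by DESeq2, with log2 fold changes of 5.23 and 4.79, but had no DESeq2 p without S109. The number of steroidogenesis genes with an interval within 1 log2 unit was 9, and 8 to 10 without single EM or N libraries. It was 15 without S109 and 16 without S109, S112 and S121, settings chosen after seeing the data. The calgranulin median ran from 1.32 to 5.04 over single left-out libraries, and was -0.34 without S112 and S121 and -0.35 without all 3. In the same 2 settings the neutrophil median was -0.15 and -0.16 and the complement median -0.16 and -0.17. There S100A12 was at -0.34 and -0.35, S100A9 at -0.12 and -0.12 and S100A8 at -1.05 and -1.05. Over single left-out libraries S100A8 ran from -0.040 without S121 to 3.73 without S129. The interferon-stimulated gene median ran from -0.93 without S112 to -0.29 without S116. Between 54 and 422 genes were carried by 1 EM library without single EM libraries, the lower number without S121, and 604 at an EM mean of at least 1 CPM. The cause of these shifts was not tested. STAR, CYP11A1, HSD3B1, FDX1, LHCGR and SCARB1 moved by less than the spread between replicates in all 25 settings. The replicates include S112 and S121, which were low in these genes, so this says little about how steady the values are. The steroidogenesis median was -0.10 with all libraries and 0.14 without S109, S112 and S121. Depth limits genes of a few CPM, such as LOC100297751 and CAPS2, where single counts enter the values.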

Other observations

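LOC784294, named after its values were seen, was either near absent or plainly present in single libraries of each group. It had 25 CPM in EM replicate S121 and at most 0.12 CPM in the other EM libraries. In N it had 18, 19.5 and 36.5 CPM in S124, S127 and S129, and at most 0.372 CPM elsewhere. LOC100297751 had a like split among NP libraries.

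PIGR, which carries antibodies across mucous epithelium, had 1728 CPM in S121, and 298, 166 and 528 CPM in N replicates S119, S122 and S124. The other N libraries had at most 6.84 CPM. EM replicates S110, S114, S117 and S125 had 7 to 35 counts of PIGR and S112 had 321. DESeq2 called PIGR without S112 and S121 and also without S109, S112 and S121. JCHAIN, the joining chain of secreted antibodies, had 319 CPM in S121 and 121.6 CPM in S124.

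Of 21 cell cycle genes, 14 lay under every N library in S112, 2 in S121 and 17 in S109, beside 25.3%, 27.8% and 31.5% of all genes tested. Of the 5 markers of lymphatic endothelium, 3 stood above and 1, PDPN, below every N library in S112, and 0 stood above in S121. Over all genes tested, the shares were 22.4% above and 25.3% below in S112, and 26.6% above in S121. The sum of the 5 markers was 636 CPM in S112 against 176 to 429 CPM in N, and CCL21 made up 391.6 CPM of it.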
